A study of Homo sapiens with 16 samples.

Results

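The genes of the AP-1 family were examined for binding of p53 and of CTCF in MCF10A cells before and after HRAS transformation. The genes were FOS, FOSB, FOSL1, FOSL2, JUN, JUNB, JUND and ATF3, and a peak was counted where it lay within 50 kb of the body of 1 of these 8 genes in GENCODE on hg19. Together they held 121 of the 76863 peaks of the 8 peak lists, namely 114 CTCF peaks and 7 p53 peaks. Overlapping peaks (1 bp or more) from the 4 libraries of either factor were joined to form sites, which gave 41 CTCF sites and 3 p53 sites, 44 of the 32044 sites of the genome. A site is named below by its gene and by the distance of its summit from the 5′ end of that gene, with a plus sign in the direction of transcription.

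ChIP-seq was performed with 2 replicates for each factor in each of the 2 cell types, against input libraries that entered only through the peak caller. MCF10A is a non-tumorigenic, immortalized human mammary epithelial cell line, here in its parental form. G12V cells are the same line after lentiviral transduction with H-RAS Gv12, the G12V form of the HRAS oncogene. A GFP vector was introduced with it, and the cells were selected with hygromycin. The paper reports that they stopped growing at first and grew again some weeks later. No vector or selection is described for the parental cells, so the 2 cell types may differ in these as well. All p53 samples, in both cell types, came from cells treated with Nutlin, which blocks the MDM2 protein that degrades p53, whereas the labels give no treatment for the CTCF samples, so that p53 and CTCF values do not share a treatment. Peak lists hold no RNA levels, so neither the identity of the cells nor the expression of HRAS could be examined, and the p-values measure the spread between libraries. The methods of the study call the replicates biological, whereas no label says whether they came from separate cultures.

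AP-1 is a dimer of leucine-zipper proteins. FOS proteins pair with JUN proteins, JUN proteins also pair with each other, and ATF3 pairs with JUN proteins or with itself. The dimers bind the word TGACTCA or TGAGTCA. FOS, FOSB, JUN and JUNB are immediate early genes that growth factors switch on within minutes, FOSL1 is raised by sustained RAS and ERK signalling in epithelial cells, and ATF3 is a stress-response gene. p53 binds 2 adjacent copies of a half-site with a conserved C and G, and CTCF binds a longer non-symmetrical word whose direction sets the direction of chromatin loops.

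The lists of p53 held 477 to 2619 peaks and those of CTCF 11346 to 27678. The ChIP depth recovered from the lists was 9.26 to 33.2 M reads for p53 and 11.4 to 18.6 M reads for CTCF (M, 1e6 reads), and the lowest summit that was called held 7.00 to 10.1 fragments. Peaks were called at a depth of 9.26 to 23.9 M reads for p53 and 10.7 to 13.5 M reads for CTCF. Fragments at a summit, as given below, were not brought to a common depth or fragment length between libraries. A gene without a peak in a list had no summit past the threshold of the caller at that depth, which does not show that the factor was absent. The p53 list of G12V replicate 1 was the shortest and its library the shallowest, and its peak names carry the word "old" and the number 2, whereas its title gives replicate 1. It was kept under the number of its title. In both cell types the CTCF list of replicate 2 was the longer one, although its library was the shallower one. For MCF10A the CTCF peaks of replicate 2 were called at a depth of 10.9 M reads, against 12.1 M for replicate 1. For G12V this depth was 10.7 M for replicate 2, against 13.5 M for replicate 1. Depth thus ran opposite to the length of the CTCF lists within each cell type, and the reason was not tested.

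A p53 site was found at 3 genes, ATF3, FOSL1 and FOSL2, and the sequence around each summit is shown because it holds the words described below. Each is the forward strand of hg19, 150 bases centred on the summit of the strongest peak. The windows are chr1:212769849-212769998 in an intron of ATF3, chr11:65666649-65666798 in an intron of FOSL1, and chr2:28632007-28632156 in an intron of FOSL2. In the FOSL1 and FOSL2 windows the capitals mark a p53 motif, 2 adjacent half-sites with at most 3 mismatches outside the conserved bases. In the ATF3 window the first capitals mark an AP-1 word and the second mark the stretch closest to the p53 motif.
ATF3 +31.2 kb: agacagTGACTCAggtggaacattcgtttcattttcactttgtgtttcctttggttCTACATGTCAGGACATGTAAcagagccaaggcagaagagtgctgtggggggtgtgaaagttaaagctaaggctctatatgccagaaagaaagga
FOSL1 +1.3 kb: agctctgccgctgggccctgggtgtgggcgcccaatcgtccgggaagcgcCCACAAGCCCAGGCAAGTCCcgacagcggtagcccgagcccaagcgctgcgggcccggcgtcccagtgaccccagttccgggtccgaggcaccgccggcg
FOSL2 +16.8 kb: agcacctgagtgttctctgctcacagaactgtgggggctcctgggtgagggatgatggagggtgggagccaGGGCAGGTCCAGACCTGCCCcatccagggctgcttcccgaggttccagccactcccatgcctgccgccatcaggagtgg

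The FOSL1 and FOSL2 motifs had 2 mismatches each and lay 15 bp before and 6 bp after the summit. The ATF3 stretch, centred 9 bp before the summit, kept the conserved C and G of both half-sites but had 5 mismatches, and was not counted. The p53 motif was thus found at 2 of 3 p53 sites, beside 70.5% of all p53 sites. With up to 5 mismatches, a limit set after the ATF3 sequence was seen, it was found at 3 of 3, beside 79.1% of all p53 sites and 5.47% of all CTCF sites. The word TGACTCA, whose reverse complement is the other AP-1 word, was found 66 bp before the ATF3 summit. It stood in 1 of the 3 windows, beside 6.72% of all p53 sites, and FOSL1 had the same word 136 bp after its summit when the window was widened to 300 bp. A match of letters is a description and does not show that a factor was bound there.

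The p53 site of ATF3 was the only one at these genes found in all 4 libraries. It spans chr1:212769376-212770269 and lies 12179 bp from the nearest annotated ATF3 start site, since ATF3 has start sites inside its gene body. Its summit held 61 and 32 fragments in MCF10A replicates 1 and 2 and 35 and 150.0 in G12V replicates 1 and 2, on the scale at which peaks were called. In the same order, the fold enrichment over local background was 14.9, 10.4, 6.90 and 28.4. By fold, G12V replicate 2 was the highest and G12V replicate 1 the lowest, so the G12V libraries enclosed both MCF10A libraries. By fragments, G12V replicate 2 was again the highest, but MCF10A replicate 2 was the lowest. Peaks were called at 21.4 and 20.1 M reads in MCF10A and at 9.26 and 23.9 M reads in G12V. The fragment lengths were 147 and 113 bp in MCF10A and 279 and 180 bp in G12V. The fragment counts were not scaled for either, so their order cannot be read as an order of binding. The 4 summits fell within 64 bp of each other, beside a median of 39 bp over all p53 sites found in all 4 libraries.

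Ranked within its own list by the −log10 q of the caller, the ATF3 peak was number 206 and 188 among the MCF10A peaks and number 187 and 55 among those of G12V. Written as a rank percentile, where 100 is the strongest peak of a list, this was 83.5 ± 6.50 for MCF10A against 79.5 ± 26.1 for G12V (SD, n = 2 each), a difference of −4.00 points (exact two-sided permutation test, p = 1; with 2 libraries a group the smallest p the test can give is 0.333). Ranked by fold instead, the difference was −13.8 points. The direction depended on which libraries were included, since the difference was 14.5 points when G12V replicate 1 was left out and 0.602 points when MCF10A replicate 1 was. Over the 332 p53 sites found in all 4 libraries, the cell types did not overlap at 13.3% with G12V higher and at 14.2% with MCF10A higher, and ATF3 was among neither.

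FOSL1, which encodes the Fra-1 protein, had its p53 site in an intron, 1135 bp from the nearest FOSL1 start site, at chr11:65666488-65667026. It was called in 1 library of each cell type, with 23 fragments and a fold of 7.27 in MCF10A replicate 1 and with 54.1 fragments and a fold of 19.9 in G12V replicate 2. The rank was 985 of 1718 peaks in the former and 405 of 2619 in the latter, and the summits differed by 1 bp. FOSL2, which encodes Fra-2, had a p53 peak at chr2:28631959-28632225 in G12V replicate 2 alone, with 19.5 fragments, a fold of 7.81 and rank 1611 of 2619. Neither site was in both libraries of a cell type, and both were absent from the lists of MCF10A replicate 2 and G12V replicate 1, the shorter list of each cell type. Within 50 kb of FOS, FOSB, JUN, JUNB and JUND no library had a p53 peak.

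**Figure D1:**
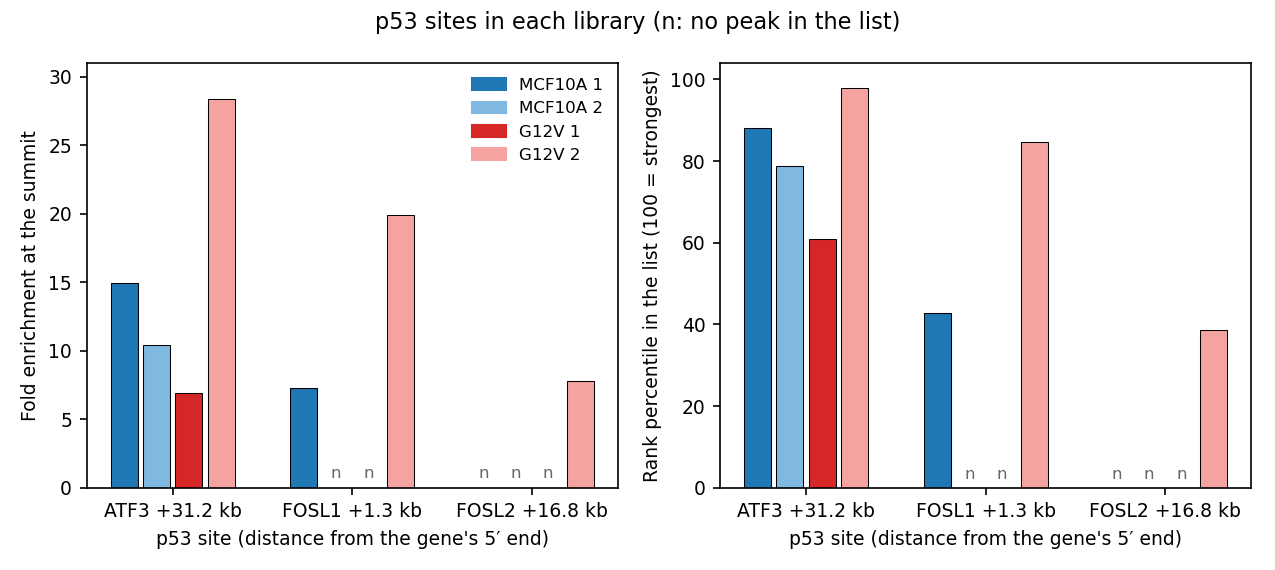
Fold enrichment at the summit (left) and rank percentile within the list (right, 100 is the strongest peak) of the 3 p53 sites, 1 bar for each library, with n where the list held no peak. The ATF3 site is present in all 4 libraries with folds of 6.90 to 28.4, and G12V replicate 2 has the highest bar at every site.

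A p53 site thus lay near 3 of the 8 genes, beside 18.9% of the 20098 protein-coding genes, and a p53 site of all 4 libraries near 1, beside 2.41%. No gene of the family had a p53 site in both libraries of 1 cell type and neither of the other, which 0.448% of all genes had for MCF10A and 0.453% for G12V. As a share of the list, the p53 peaks at the genes made up 0.115 ± 0.00242% for MCF10A against 0.162 ± 0.0672% for G12V (SD, n = 2 each; exact two-sided permutation test, p = 0.667). These shares rest on 2, 1, 1 and 3 peaks, and for the single peak of G12V replicate 1 the exact (Clopper-Pearson) 95% interval ran from 0.00531 to 1.16% (counting error only). The difference was 0.0474 points, and −0.000157 points without G12V replicate 1.

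CTCF sites were found at all 8 genes, beside 85.7% of all protein-coding genes. Sites called in all 4 libraries were 15 of the 41, or 36.6% beside 27.5% of all CTCF sites. They lay at 6 genes, beside 51.8% of all genes, and FOSL2 and JUN had none. No site was found in both MCF10A libraries only, beside 0.261% of all CTCF sites, and 0.776% of all genes have such a site nearby. In both G12V libraries only, 2 sites were found, or 4.88% of the 41 beside 3.33% of all CTCF sites. They lay at ATF3 and JUND, and 7.9% of all genes have such a site nearby. Of the other sites, 8 were in 3 libraries, a class whose share over all CTCF sites was not computed. A further 10 were in both replicates 2 and neither replicate 1, 24.4% of the 41 beside 19.1% of all CTCF sites, and 6 were in 1 library, 14.6% beside 29.7%. These counts moved with single libraries. The G12V-only sites numbered 7 without G12V replicate 1 and 6 without MCF10A replicate 2, and the MCF10A-only sites numbered 4 without G12V replicate 2 and 1 without MCF10A replicate 1.

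The strongest CTCF site of 6 of the 8 genes, by the mean rank percentile over the libraries that called it, held the CTCF core motif with at most 1 mismatch on either strand. The stretches of 5 of these are shown with 1 of the G12V-only sites, and the capitals mark the match within 40 bases that read in the direction of the motif. They are chr14:75762912-75762951 (reverse strand) for FOS +17.4 kb, chr19:45942867-45942906 (forward) for FOSB −28.3 kb, chr11:65652269-65652308 (forward) for FOSL1 +15.7 kb, chr2:28675514-28675553 (reverse) for FOSL2 +60.2 kb, chr1:59235096-59235135 (reverse) for JUN +14.6 kb and chr19:18340415-18340454 (forward) for JUND +52.0 kb, all on hg19.
FOS +17.4 kb: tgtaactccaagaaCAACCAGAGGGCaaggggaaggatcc
FOSB −28.3 kb: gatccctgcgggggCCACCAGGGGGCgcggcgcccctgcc
FOSL1 +15.7 kb: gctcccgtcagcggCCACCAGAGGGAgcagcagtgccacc
FOSL2 +60.2 kb: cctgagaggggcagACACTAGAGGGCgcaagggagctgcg
JUN +14.6 kb: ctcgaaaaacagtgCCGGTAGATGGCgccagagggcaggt
JUND +52.0 kb: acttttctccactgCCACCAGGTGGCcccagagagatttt

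The FOSB −28.3 kb and JUND +52.0 kb stretches matched with 0 mismatches and the other 4 with 1. Over all 41 CTCF sites of the family the motif was found at 15, or 36.6%, beside 52.1% of all CTCF sites, and without a mismatch at 4. It pointed along the direction of transcription of the gene at 10 of these sites and against it at 5. This is a description only, since no share over all genes was computed and many of these sites lay closer to other genes. The AP-1 word stood at 1 of the 41 sites, FOSB −40.2 kb, beside 2.23% of all CTCF sites, and the p53 motif at 0 of 41, beside 0.599%.

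**Figure D2:**
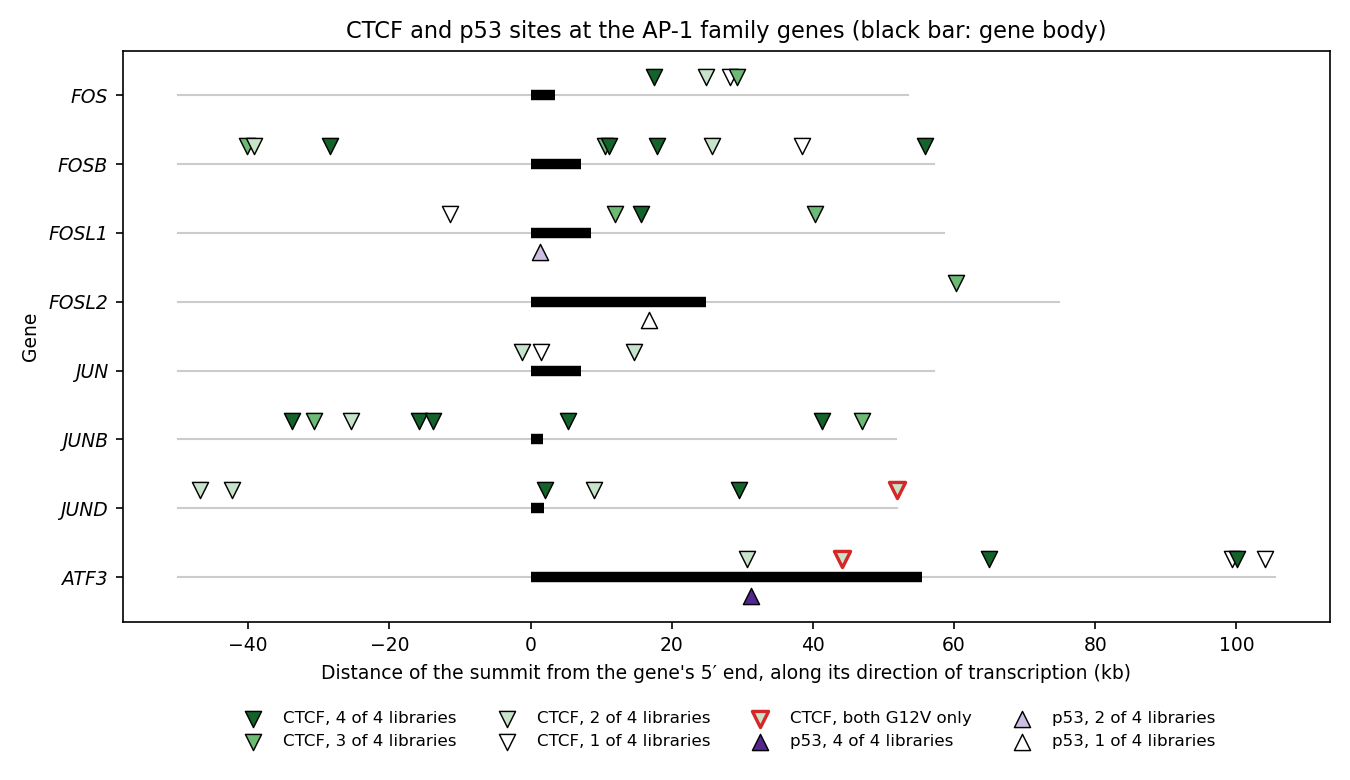
Position of every site along the 8 genes, in kb from the 5′ end of the gene in the direction of transcription, with the gene body as a black bar and the 50 kb limits as the ends of the grey line. CTCF sites (triangles above) are shaded by the number of libraries, with the 2 G12V-only sites outlined in red, and p53 sites are triangles below. Of the 41 CTCF sites, 25 lie downstream of the gene, 12 upstream and 4 in it.

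The number of CTCF sites differed between the genes. FOSB had 9 and JUNB 8, whereas 2.11% and 3.87% of all protein-coding genes had at least as many. JUND and ATF3 had 6 each, FOS and FOSL1 4, JUN 3 and FOSL2 1. The median of 5 stood beside a median of 2 over all protein-coding genes (25th to 75th percentile, 1 to 4) and of 3 over those of chromosome 19, which holds FOSB, JUNB and JUND. Many of the sites lay closer to other genes, since the nearest start site was that of the AP-1 gene at 10 of 41 sites, and 12 sites were within 1 kb of the start site of some protein-coding gene.

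**Figure D3:**
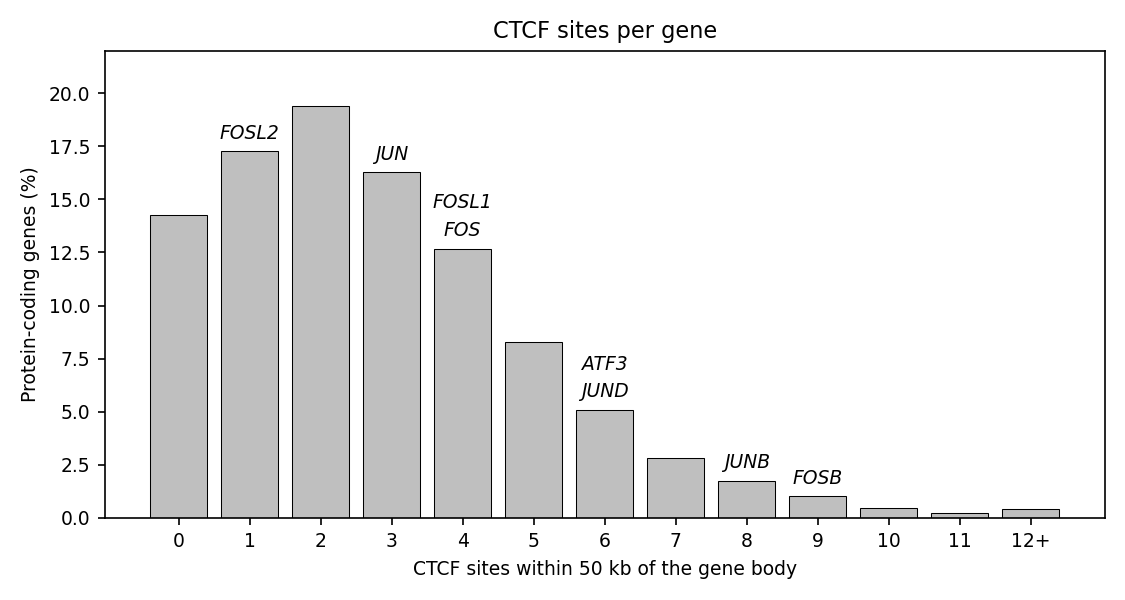
Percentage of protein-coding genes (y axis) by the number of CTCF sites within 50 kb of the gene body (x axis, genes with 12 or more in the last bar), with the AP-1 family genes written above their number. FOSB with 9 and JUNB with 8 stand in the upper tail, and FOSL2 with 1 below the median of 2.

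CTCF peaks at the 8 genes numbered 19 and 34 in MCF10A replicates 1 and 2 and 21 and 40 in G12V replicates 1 and 2. The counts followed the length of the lists, with more peaks in replicate 2 of each cell type. In the same order they made up 0.167%, 0.169%, 0.175% and 0.145% of the list, and each share lay within the exact 95% intervals of the others, of which the widest ran from 0.101 to 0.261% in MCF10A replicate 1. The mean was 0.168 ± 0.000984% for MCF10A against 0.160 ± 0.0215% for G12V (SD, n = 2 each), a difference of −0.00843 points (exact two-sided permutation test, p = 1), which became 0.00679 points without G12V replicate 2.

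**Figure D4:**
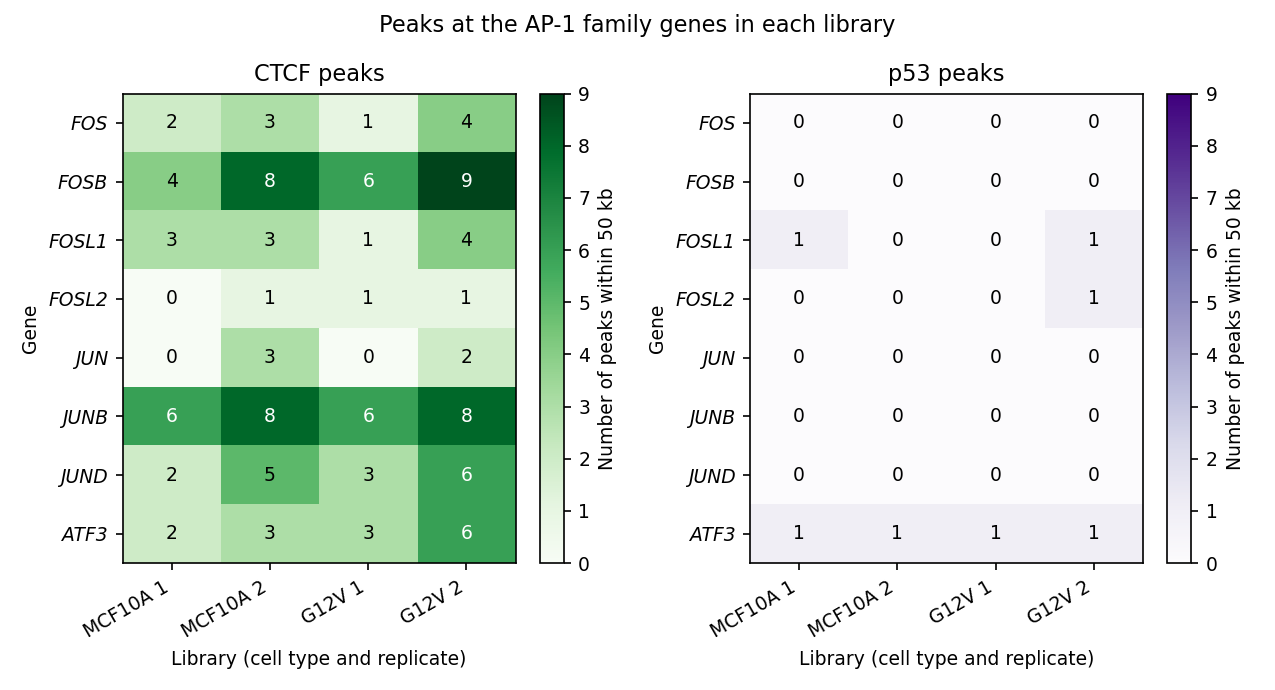
Number of CTCF peaks (left) and p53 peaks (right) within 50 kb of each gene (rows) in each library (columns), on a shared colour scale from 0 to 9. JUNB and FOSB have 4 to 9 CTCF peaks in every library, JUN has none in either replicate 1, and p53 peaks stand at ATF3 in all 4 libraries.

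Among the FOS genes, FOS itself had 1 CTCF site of all 4 libraries, at chr14:75762754-75763195, 17.4 kb from its 5′ end and downstream of the gene with no other protein-coding gene over it. It ranked 264 and 187 in the MCF10A lists and 2393 and 9405 in the G12V lists. The summit held 29.8 and 53.2 fragments in MCF10A and 23.9 and 46.8 in G12V. Both MCF10A libraries were thus higher in rank than both G12V libraries, with percentiles of 98.4 ± 0.986 and 73.0 ± 9.93 (SD, n = 2 each) and a difference of −25.3 points (exact permutation test, p = 0.333, the smallest possible), while the fragment counts of the cell types overlapped. The local background at this summit was 1.22 and 1.25 fragments in MCF10A and 1.61 and 4 in G12V. The other 3 FOS sites, downstream as well, were in 3, 2 and 1 libraries.

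FOSB, which pairs with JUN proteins as FOS does, had 4 CTCF sites of all 4 libraries. Introns of ERCC1, a DNA repair gene, were annotated at CTCF sites on both sides of FOSB. The strongest of them, FOSB −28.3 kb at chr19:45942661-45943247 in an ERCC1 intron, ranked 181 and 1346 in MCF10A and 1073 and 604 in G12V. Its percentiles were 91.1 to 98.4 in the 4 libraries, the cell types overlapped, and the difference was −1.42 points (exact permutation test, p = 0.667). The cell types also overlapped at +11.2 kb, where MCF10A had percentiles of 37.0 and 87.5 and G12V of 50.0 and 67.7, and at +55.8 kb, where G12V replicate 1 was at 15.8 and the other libraries between 68.4 and 82.2. At +17.9 kb both MCF10A percentiles (71.6 and 74.8) were above both G12V percentiles (59.8 and 62.8), but this site is 937 bp long. Its summits spanned 455 bp, beyond the median of 48 bp over all CTCF sites of 4 libraries. The summit of G12V replicate 1, at position 45988706, stood apart from those of the other libraries, at 45989146 to 45989161.

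FOSL1 had 1 site of all 4 libraries, FOSL1 +15.7 kb at chr11:65652036-65652566, in an intron of FIBP. It took rank 1622 and 5224 of the MCF10A peaks and 1585 and 1056 of the G12V peaks, which in percentiles gave 79.9 ± 8.24 and 91.5 ± 6.64 (SD, n = 2 each), with both G12V libraries above both MCF10A libraries (difference 11.6 points, exact permutation test, p = 0.333). The difference was 5.78 points without MCF10A replicate 2 and 6.92 points without G12V replicate 2. The lowest G12V value exceeded the highest MCF10A value by a narrow margin, at 86.8 against 85.7. No CTCF site of any library overlapped the p53 site of FOSL1, and the nearest CTCF summit was 10719 bp away. FOSL2 had its single CTCF site 35168 bp past the end of the gene, at chr2:28675352-28675770, in every library but MCF10A replicate 1, with percentiles of 60.3, 69.3 and 59.2 in MCF10A replicate 2 and G12V replicates 1 and 2.

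Of the JUN genes, JUN had 3 CTCF sites and none of them in a replicate 1 library. Its strongest, JUN +14.6 kb at chr1:59234944-59235317, was in the upper part of both replicate 2 lists, at percentiles of 73.7 in MCF10A and 89.9 in G12V with 31.4 and 56.2 fragments. A site 1.2 kb upstream of the JUN start had percentiles of 28.1 and 41.8, and a peak in the JUN coding exon was at the 1.97 percentile of MCF10A replicate 2.

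JUNB, whose protein is a JUN partner with weaker activation than JUN itself, had the most CTCF sites of all 4 libraries among the 8 genes, namely 5. At JUNB +5.2 kb, chr19:12907345-12907815, 3216 bp past the 3′ end of JUNB, MCF10A had percentiles of 78.8 and 90.6 and G12V of 30.3 and 51.5, a difference of −43.8 points and the furthest from 0 of the 15 sites (exact permutation test, p = 0.333). The summit held 18.8 and 37.1 fragments in MCF10A and 14.9 and 34.7 in G12V, which overlapped. The local background there was 0.95 and 1.27 fragments in MCF10A and 1.33 and 3 in G12V. Percentiles at JUNB −13.8 kb, in an intron of HOOK2, were 68.1 and 96.7 against 52.1 and 65.9, MCF10A first, and those at JUNB −33.8 kb, in a coding exon of BEST2, were 92.8 and 84.4 against 58.6 and 77.8, neither overlapping. With 1 library left out at a time, the difference ranged from −37.6 (without MCF10A replicate 1) to −9.14 points (without MCF10A replicate 2) at the former and from −30.0 (without G12V replicate 2) to −10.8 points (without G12V replicate 1) at the latter. The summit of JUNB −33.8 kb held 23.3 and 37.1 fragments in MCF10A and 24.8 and 48.7 in G12V. Its local background was 1 and 1.82 fragments in MCF10A and 3 and 3 in G12V. The percentiles of JUNB −15.8 kb overlapped, with 77.7 and 59.6 in MCF10A and 24.3 and 85.3 in G12V.

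JUND, the JUN gene that most cells express without stimulation, had a CTCF site over its 3′ end, JUND +2.1 kb at chr19:18390152-18390563. It ranked 227 and 961 for MCF10A and 6004 and 2531 for G12V, and had percentiles of 96.6 ± 1.96 and 70.4 ± 28.9 (SD, n = 2 each) that did not overlap (difference −26.2 points, exact permutation test, p = 0.333). The difference was −5.76 points without G12V replicate 1 and −46.6 points without G12V replicate 2. The summit held 35.6 and 46.6 fragments in MCF10A and 19.9 and 57.1 in G12V, which overlapped. No CTCF motif was found in its window. JUND +29.6 kb went the other way, at 37.0 and 25.5 in MCF10A and 43.0 and 75.8 in G12V, a difference of 11.7 points without G12V replicate 2 and 44.5 points without G12V replicate 1. The G12V-only site JUND +52.0 kb, at chr19:18340297-18340612 in an intron of PDE4C, had 16.9 and 21.5 fragments, folds of 7.90 and 11.1 and percentiles of 50.4 and 43.5 in G12V replicates 1 and 2. It is 49892 bp from JUND, just within the limit of 50 kb, and carried the CTCF motif without a mismatch shown above.

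ATF3, the stress-response member, had 6 CTCF sites. The G12V-only site ATF3 +44.1 kb, at chr1:212782512-212782995, lay 502 bp from an ATF3 start site inside the gene, with 20.9 and 39.4 fragments, folds of 4.37 and 6.72 and percentiles of 15.8 and 45.6, in the lower part of both G12V lists, and no CTCF motif. A CTCF site at ATF3 +30.7 kb, in both replicates 2 only, was the gene's strongest by mean percentile, at 76.1 in MCF10A and 70.6 in G12V. Its summit was 564 bp from that of the p53 site of ATF3 and the merged sites overlapped by 167 bp, through the wide p53 peak of G12V replicate 2. Past the end of the gene, ATF3 +64.9 kb had percentiles of 73.2 and 82.8 in MCF10A and 32.0 and 76.4 in G12V, which overlapped, and ATF3 +100.1 kb, closer to BATF3, had 35.1 and 14.3 against 41.0 and 44.6, which did not. The latter difference was 7.70 points without MCF10A replicate 2 and 28.5 points without MCF10A replicate 1.

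Over the 15 CTCF sites of all 4 libraries, the rank percentiles of the cell types did not overlap at 10. G12V was higher at 4, beside 20.9% of all 8006 such CTCF sites, and MCF10A was higher at 6, beside 9.54%. The median difference, G12V minus MCF10A, was −13.8 points over the 15 sites and 3.63 points over all 8006, and the difference was below 0 at 11 of 15 sites and at 41.9% of all. The 15 sites were not spread evenly over the family, since 5 were at JUNB, 4 at FOSB and 2 at JUND, all on chromosome 19. A background of that chromosome alone was not tested. G12V replicate 1 had the lowest percentile of the 4 libraries at 9 of the 15 sites, beside 37.9% of all sites, and without that library the median difference became 1.95 points over the 15 and 12.8 points over all 8006. The percentile also depends on how many weak peaks a list holds and on the local background at the summit. That background was higher in both G12V libraries than in both MCF10A libraries at FOS +17.4 kb, JUNB +5.2 kb and JUNB −33.8 kb. It overlapped at JUNB −13.8 kb, FOSB +17.9 kb and JUND +2.1 kb, where MCF10A also ranked higher. The part of list length or of background in these differences was not tested. No site passed a threshold, since the smallest p of the test was 0.333 before and 1 after Benjamini-Hochberg adjustment over all 8006 sites.

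**Figure D5:**
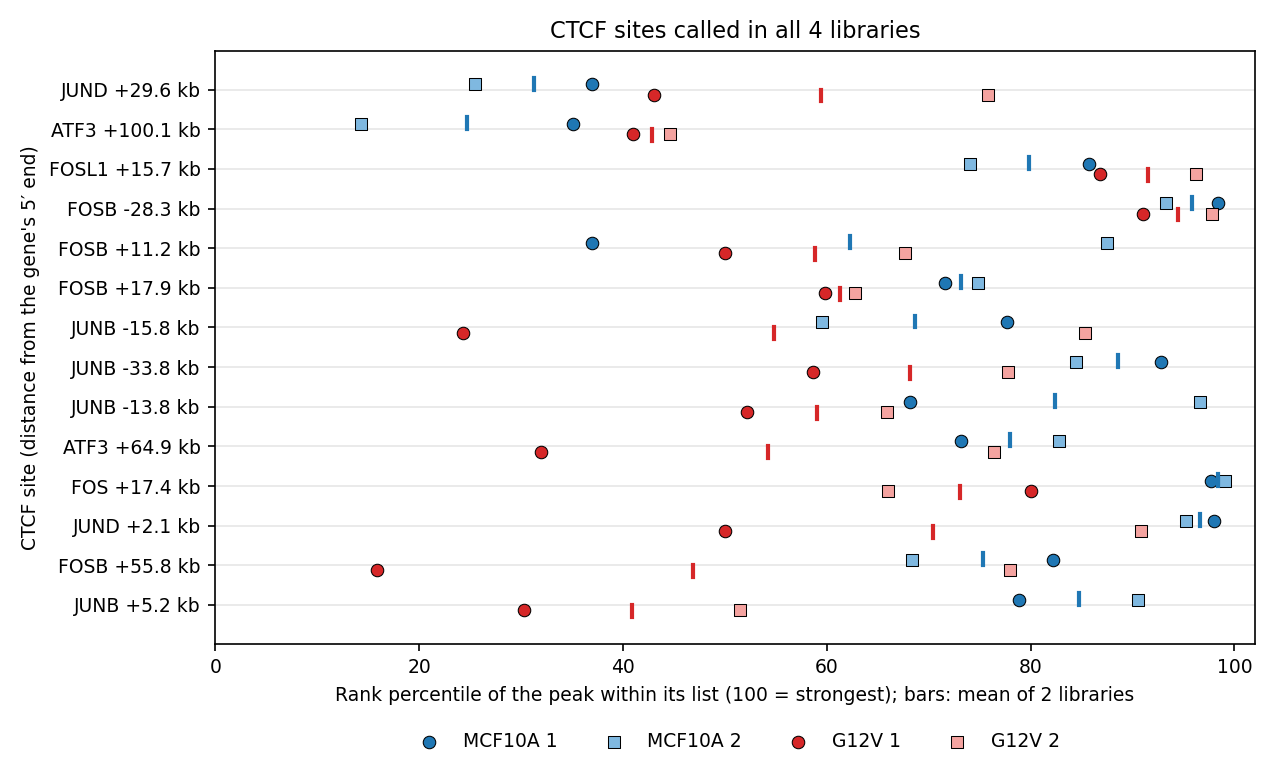
Rank percentile within the list (x axis, 100 is the strongest peak) of 14 of the 15 CTCF sites called in all 4 libraries, 1 point for each library and a short bar for the mean of 2 libraries, ordered by the difference. JUNB +5.2 kb at the bottom has both G12V points left of both MCF10A points, JUND +29.6 kb at the top has them to the right, and 5 sites overlap.

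A further 20 genes that work with AP-1 (other leucine-zipper partners, the MAP kinases and the factors ELK1 and SRF) were counted in the same way. A p53 site lay near 3 of them, beside the 18.9% of all genes. NFE2L2, which encodes the oxidative stress factor NRF2, had 2 p53 sites, 1 of them found in all 4 libraries, 48088 bp from the gene and nearest to HNRNPA3, at rank 46 of 1718 and 29 of 885 in MCF10A replicates 1 and 2. In G12V it was number 465 of 477 in replicate 1, near the bottom of that short list, and 485 of 2619 in replicate 2. The other lay in an NFE2L2 intron, 1344 bp from the start, in every library but G12V replicate 1. MAPK9, which encodes the kinase JNK2 that phosphorylates JUN, had an intronic p53 site in MCF10A replicate 1 and G12V replicate 2, and BATF2 had one in G12V replicate 2 over SAC3D1. CTCF sites were found at 19 of the 20 genes, beside 85.7% of all genes, and those of all 4 libraries at 13, beside 51.8%. An MCF10A-only site lay near 0 of the 20, beside 0.776%, and a G12V-only site near 1, beside 7.9%.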

How the data were processed

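According to the paper's methods and the labels, the authors mapped reads to hg19 with Bowtie, retained those with a unique position and called peaks with MACS2 against input at the default q-value of 5%. For its own analyses the study pooled the reads of replicates, whereas each deposited list used here belongs, by its title, to 1 library. The deposited peaks carry a score, a fold enrichment (summit coverage as a ratio to the local background), a −log10 p and a −log10 q. Here these served to rank and describe peaks, and the fold and −log10 p were solved together for the summit fragments and the depth, for a mappable genome of 2.7 Gb. The solver, the joining of sites and the motif search were tested on simulated data. All peak ends were within the chromosome lengths of GRCh37, which supplied the sequences. Genes came from GENCODE release 44 mapped to it, with protein-coding genes of the autosomes and chromosome X as background.

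Titles gave each sample its group and replicate number. A site was MCF10A-only or G12V-only when both libraries of that cell type and neither of the other had a peak. The test between cell types was an exact two-sided permutation test with 6 possible assignments. Motifs were searched in 150 bp centred on the strongest summit, for the p53 motif with the conserved C and G intact, the CTCF core motif on both strands and the AP-1 words TGACTCA and TGAGTCA. Named were all 8 genes, their p53 sites, their CTCF sites of all 4 libraries or of 1 cell type, the strongest CTCF site of each gene, and other AP-1 genes with a p53 site. Some further sites were named after their values were seen. The values and sequence of 1 CTCF site of JUNB are not reported here, though the counts include it. The members and lists were chosen with earlier results of these data known. Alternatives were distances of 25 and 100 kb, lists of equal length, a −log10 q of at least 10, sites joined by summits within 100 bp, ranking by fold, a replicate block, each library left out, a window of 300 bp, 1 mismatch fewer and a background of genes up to 55444 bp long. Python 3.11.15, pandas 2.3.3, SciPy 1.17.1 and pysam 0.24.0 were used.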

Additional observations from a re-analysis of the deposited data

How the results depend on the processing

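Results rest on whether a peak passed the threshold of the caller, on lists of unequal length (477 to 2619 peaks for p53), and on 2 libraries a group, for which no test could pass. With distances of 25 and 100 kb in place of 50 kb, the CTCF sites fell to 21 (9 in all 4 libraries, 1 in G12V only) and those of all 4 libraries rose to 23, and p53 sites rose to 8, of which 3 were in all 4 libraries, at 5 of the 8 genes. With lists of equal length, CTCF sites of 1 cell type were 1 in MCF10A and 1 in G12V, the difference in the share of CTCF lists turned to 0.00830 points, p53 sites fell to 2, and the difference in the share of p53 lists was 0.108 points (exact permutation test, p = 0.333) in place of 0.0474. At a −log10 q of at least 10, CTCF sites of all 4 libraries fell to 6 and those of G12V only to 0, and the difference in the share of CTCF lists was −0.0722 points (exact permutation test, p = 0.333, the smallest possible). A 300 bp window gave 2 p53 sites with the AP-1 motif (10.8% of all p53 sites), 1 mismatch fewer left 4 CTCF sites with the CTCF motif (9.76%, beside 17.0% of all), and up to 5 mismatches, chosen after seeing the data, gave 5 CTCF sites with the p53 motif (5.47% of all). Ranked by fold, the difference at the p53 site of ATF3 was −13.8 in place of −4.00 points.

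With 1 library left out at a time, the difference in list share ranged from −0.000157 points (without G12V replicate 1) to 0.0949 points for p53 and from −0.0236 to 0.00679 points (without G12V replicate 2) for CTCF. Sites of 1 cell type ranged from 0 to 1 for p53 in G12V only, from 0 to 4 for CTCF in MCF10A only (4 without G12V replicate 2) and from 2 to 7 for CTCF in G12V only (7 without G12V replicate 1, 6 without MCF10A replicate 2). The difference in rank percentile ranged from −22.5 to 14.5 points at the p53 site of ATF3, above 0 without G12V replicate 1 and, at 0.602, without MCF10A replicate 1, and the median over CTCF sites from −18.3 to 1.95 points (without G12V replicate 1). The cause was not tested. A replicate block, in which same-numbered libraries are compared, left the differences at 0.0474 points (p = 0.5, exact sign-flip test, the smallest it can give) for p53 and −0.00843 points (p = 1) for CTCF. The labels do not say what the numbers share.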
